A study of Mus musculus with 58 samples.

Results

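The inflammasome is the protein assembly through which a cell turns a danger signal into mature interleukin-1 and, in the extreme, into the lytic death called pyroptosis. Described here are 10 genes of that pathway, chosen by symbol from a table of read counts that lists 15171 genes: the sensors Nlrp3 and Aim2, the adaptor Pycard, the caspases Casp1, Casp4 and Casp8, the pore-forming gasdermin Gsdmd, and the cytokines Il1b, Il1a and Il18. All 10 were in the table. RNA was sequenced from the hippocampus and cortex of the injured brain slice, pooled per mouse, in 58 mice of the C57BL/6 background, operated at 3 months of age and killed 14 days later. Every mouse carried human APOE3 (E3) or APOE4 (E4) in place of both copies of its own Apoe gene, and either both copies of Abca1 (Abca1+/+) or 1 of them (Abca1+/-). TBI mice received a controlled cortical impact through a craniotomy over the left parietal cortex, and sham mice received the anesthesia and the craniotomy alone, so that the sham brain had also undergone surgery. There were 8 sham and 8 TBI mice of the genotype E3/Abca1+/+, 7 and 6 of E3/Abca1+/-, 7 and 7 of E4/Abca1+/+, and 7 and 8 of E4/Abca1+/-, with males and females in each group. Each library came from a separate mouse.

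In textbook terms, NLRP3 responds to ion flux and to damaged membranes, and AIM2 binds double-stranded DNA in the cytosol. Either sensor gathers ASC, the product of Pycard, which in turn recruits caspase-1 to cleave the precursors of IL-1β and IL-18 and to cut gasdermin D, whose fragment opens pores in the plasma membrane. Mouse Casp4 encodes caspase-11, which senses bacterial lipopolysaccharide in the cytosol and cuts gasdermin D directly, and caspase-8 links death receptors to the same outcome. In the brain microglia are the main cells that build inflammasomes, and the transcripts of Nlrp3 and Il1b are known to be raised in a priming step that runs through NF-kappaB. Assembly and cleavage happen to proteins, so a transcript count says nothing of them.

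The submitters' processing notes name the mouse build mm10, and positions below are those of the matching annotation, GRCm38. Casp1 (chr9:5298517-5307265, plus strand) and Casp4 (chr9:5308828-5336783, plus strand) are neighbours on chromosome 9, which also holds Il18 (chr9:50554827-50581840, plus strand). The interleukin-1 genes Il1a (chr2:129299610-129309972, minus strand) and Il1b (chr2:129364570-129371139, minus strand) are neighbours on chromosome 2. Aim2 (chr1:173350879-173466040, plus strand) and Casp8 (chr1:58795374-58847503, plus strand) are on chromosome 1. The others are Nlrp3 (chr11:59541568-59566956, plus strand), Pycard (chr7:127989708-127993867, minus strand) and Gsdmd (chr15:75862327-75867408, plus strand). No member shares exons with another gene of the table. Pycard shares 485 exon bases with the annotated locus Gm45205 and Il1a 222 with Gm14023, and whether strand was used in counting is not given in the sources used here.

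For 9 of the 10 members RefSeq (GRCm38.p6) gave the bases before the transcription start, and 6 of these are printed: Casp4 and Il1b, the members with the largest fold changes after TBI in the mean of the 4 genotypes, Pycard and Aim2, which differed between genotypes, Il1a, and Il18, which changed least. Capitals mark matches to any of 7 motifs searched on both strands of the 250 bases before the start. These were the NF-kappaB consensus, TGANTCA (AP-1-like), GAGGAAGT (PU.1-like), the IRF-like motif, TTCNNNGAA (STAT-like), TGACGTCA (CRE-like) and CACGTG (E-box). Among 14623 such stretches of genes in the table, 4.83% held the NF-kappaB consensus, 4.58% the AP-1-like, 2.24% the PU.1-like, 2.54% the IRF-like, 5.87% the STAT-like, 2.49% the CRE-like and 7.89% the E-box motif. The printed stretches end before the RefSeq start, or before the first base of the GENCODE gene where that falls inside the window. For Aim2 the stretch lies inside the GENCODE span of the gene given above, and for Il18 it ends short of that span. They are chr9:5308699-5308827 on the plus strand for Casp4, chr2:129371140-129371289 on the minus strand for Il1b, chr7:127993868-127994017 on the minus strand for Pycard, chr1:173420454-173420603 on the plus strand for Aim2, chr2:129309973-129310122 on the minus strand for Il1a and chr9:50554550-50554699 on the plus strand for Il18.
Casp4: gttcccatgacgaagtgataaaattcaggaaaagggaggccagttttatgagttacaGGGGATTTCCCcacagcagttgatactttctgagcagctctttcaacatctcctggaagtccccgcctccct
Il1b: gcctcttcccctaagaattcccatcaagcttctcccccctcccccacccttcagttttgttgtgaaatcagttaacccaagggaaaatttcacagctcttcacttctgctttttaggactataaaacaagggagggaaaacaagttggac
Pycard: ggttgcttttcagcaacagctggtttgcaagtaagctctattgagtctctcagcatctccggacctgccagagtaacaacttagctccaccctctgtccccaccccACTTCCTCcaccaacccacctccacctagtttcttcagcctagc
Aim2: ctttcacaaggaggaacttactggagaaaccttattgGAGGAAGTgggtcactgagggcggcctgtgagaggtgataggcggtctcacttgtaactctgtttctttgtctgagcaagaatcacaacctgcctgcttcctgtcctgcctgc
Il1a: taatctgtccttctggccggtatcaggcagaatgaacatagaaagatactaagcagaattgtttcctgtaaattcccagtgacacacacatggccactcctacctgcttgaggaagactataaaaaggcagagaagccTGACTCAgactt
Il18: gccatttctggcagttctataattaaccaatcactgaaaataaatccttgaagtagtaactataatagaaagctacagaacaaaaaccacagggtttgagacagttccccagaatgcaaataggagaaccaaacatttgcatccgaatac
The run in capitals before Casp4 holds 3 overlapping matches to the NF-kappaB consensus, counting both strands. Pycard and Aim2 share the PU.1-like letters, which Pycard carries on the opposite strand, and Il1a has an AP-1-like match from 12 to 6 bases before its start. Of the members not printed, Nlrp3 had 1 NF-kappaB match before the second of its 2 starts, Casp1 had 1 E-box, and Casp8 had no match. A match of letters is a description, not a bound site, and the stretches before Il1b and Il18 merely lack these letters in this window.

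Total counts ranged from 4421308 to 37877346 per mouse, and the median total of the 28 Abca1+/- mice was 2.26 times that of the 30 Abca1+/+ mice, so that depth and Abca1 copies cannot be told apart in a comparison of these mice. At the lowest total 3 counts, taken as the floor, equal 0.679 CPM, and at the highest 0.0792 CPM. Abca1 itself was lower in Abca1+/- mice by log2 fold changes of −0.44 in E3 sham, −0.71 in E3 TBI, −0.35 in E4 sham and −0.19 in E4 TBI mice, of which edgeR's quasi-likelihood test called the first (adjusted p = 0.00944). Markers of neurons, hippocampal neurons, astrocytes, oligodendrocytes, endothelium and microglia were all in the table. There were 5 mice that stood apart on summed markers, 1 in each of the groups E3/Abca1+/+ TBI, E3/Abca1+/- TBI, E4/Abca1+/+ TBI, E4/Abca1+/- sham and E4/Abca1+/- TBI. Leaving them out was chosen after seeing the data. For TBI against sham only the counts of members called without them are given, and for contrasts between genotypes the values of members whose call changed.

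Levels of the members differed widely before any injury. Counts were expressed as CPM, a share of the library total, with edgeR's TMM factors, and levels of different genes are compared only per kilobase of transcript. Il18 stood far above the rest in the 29 sham mice, at 16.5 ± 1.77 CPM per kb (SD, n = 29). Casp1 followed at 1.78 ± 0.697 CPM per kb, then Casp8 at 1.02 ± 0.186, Gsdmd at 0.916 ± 0.242 and Pycard at 0.872 ± 0.200 CPM per kb, the last 3 within the spread of each other. Aim2 (0.586 ± 0.220), Il1a (0.347 ± 0.172), Nlrp3 (0.291 ± 0.0776), Il1b (0.270 ± 0.140) and Casp4 (0.170 ± 0.101 CPM per kb) came last. Aim2 lay beyond the SD of its neighbours Pycard and Il1a, and the 4 lowest lay within the spread of their neighbours. After TBI the order was Il18 (19.4 ± 2.05), Casp1 (3.11 ± 0.845), Pycard (2.96 ± 1.16), Gsdmd (2.37 ± 0.634), Casp8 (2.19 ± 0.562) and Aim2 (1.18 ± 0.486 CPM per kb), with Il1a, Il1b, Casp4 and Nlrp3 between 1.02 and 0.666 CPM per kb. The place of Pycard rests on a transcript of 2135 bases, clipped to the RefSeq gene, and its level per kb and its place would be lower with the full 3800 bases of the GENCODE transcript.

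**Figure D1:**
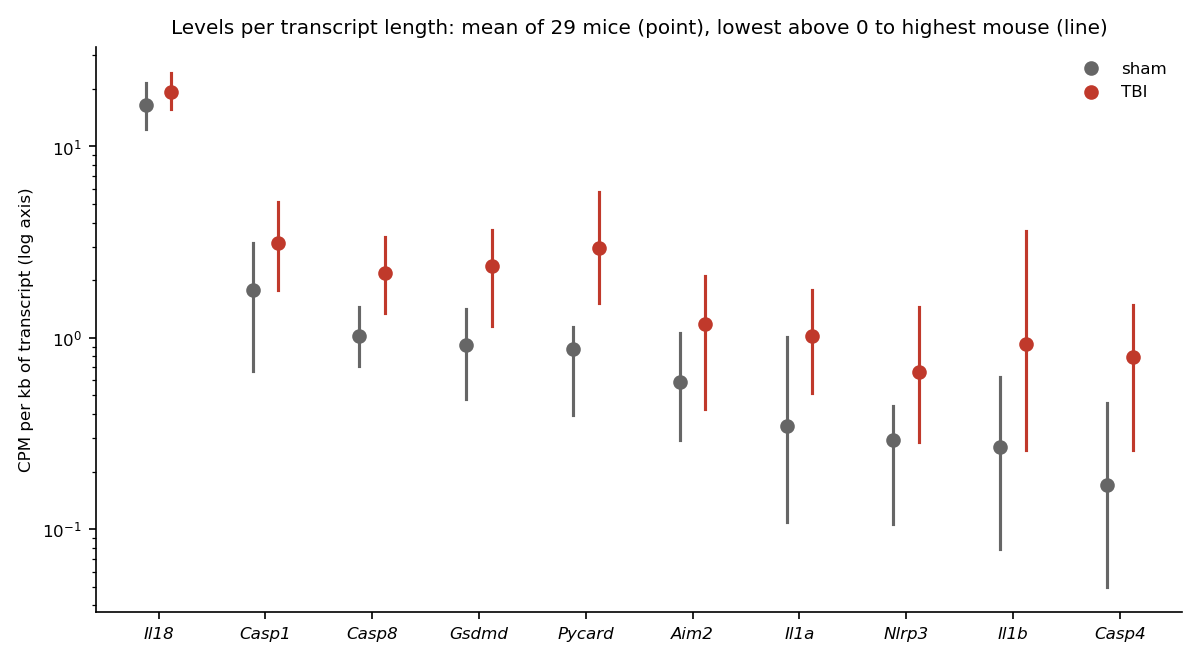
Levels of the 10 members in CPM per kb of transcript on a log axis, in 29 sham mice (grey) and 29 TBI mice (red); points are means and lines run from the lowest mouse above 0 to the highest. Il18 sits at 16.5 CPM per kb in sham mice and Casp1, the next, at 1.78, while Casp4 is lowest at 0.170.

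Most members were higher after TBI. In E4/Abca1+/- mice all 10 members were higher in TBI than in sham mice, against 17.7% of all genes tested called higher there. In E3/Abca1+/+ mice 8 of 8 members tested were higher (12.3% of all genes), in E3/Abca1+/- mice 8 of 10 (13.4%), and in E4/Abca1+/+ mice 5 of 7 (8.82%). No member was called lower, while 10.9%, 10%, 4.87% and 16.4% of all genes were in E3/Abca1+/+, E3/Abca1+/-, E4/Abca1+/+ and E4/Abca1+/- mice. In the mean of the 4 genotypes all 10 members were higher, with 29% of all genes called higher and 24.3% lower. Calls are edgeR's quasi-likelihood test at a Benjamini-Hochberg adjusted p under 0.05 over all genes tested. The median log2 fold change of the members tested was 1.08 in E3/Abca1+/+, 1.34 in E3/Abca1+/-, 0.89 in E4/Abca1+/+ and 1.59 in E4/Abca1+/- mice, while the median over all genes lay near 0 in each. Without the 5 mice that stood apart the counts were 6, 8, 4 and 10 members in the order E3/Abca1+/+, E3/Abca1+/-, E4/Abca1+/+ and E4/Abca1+/-. The genes left out were too low for the filter, namely Casp4 and Il1b in E3/Abca1+/+ mice and Casp4, Il1b and Il1a in E4/Abca1+/+ mice, both shallow genotypes. In bulk tissue, more cells of a type and more RNA per cell cannot be told apart.

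**Figure D2:**
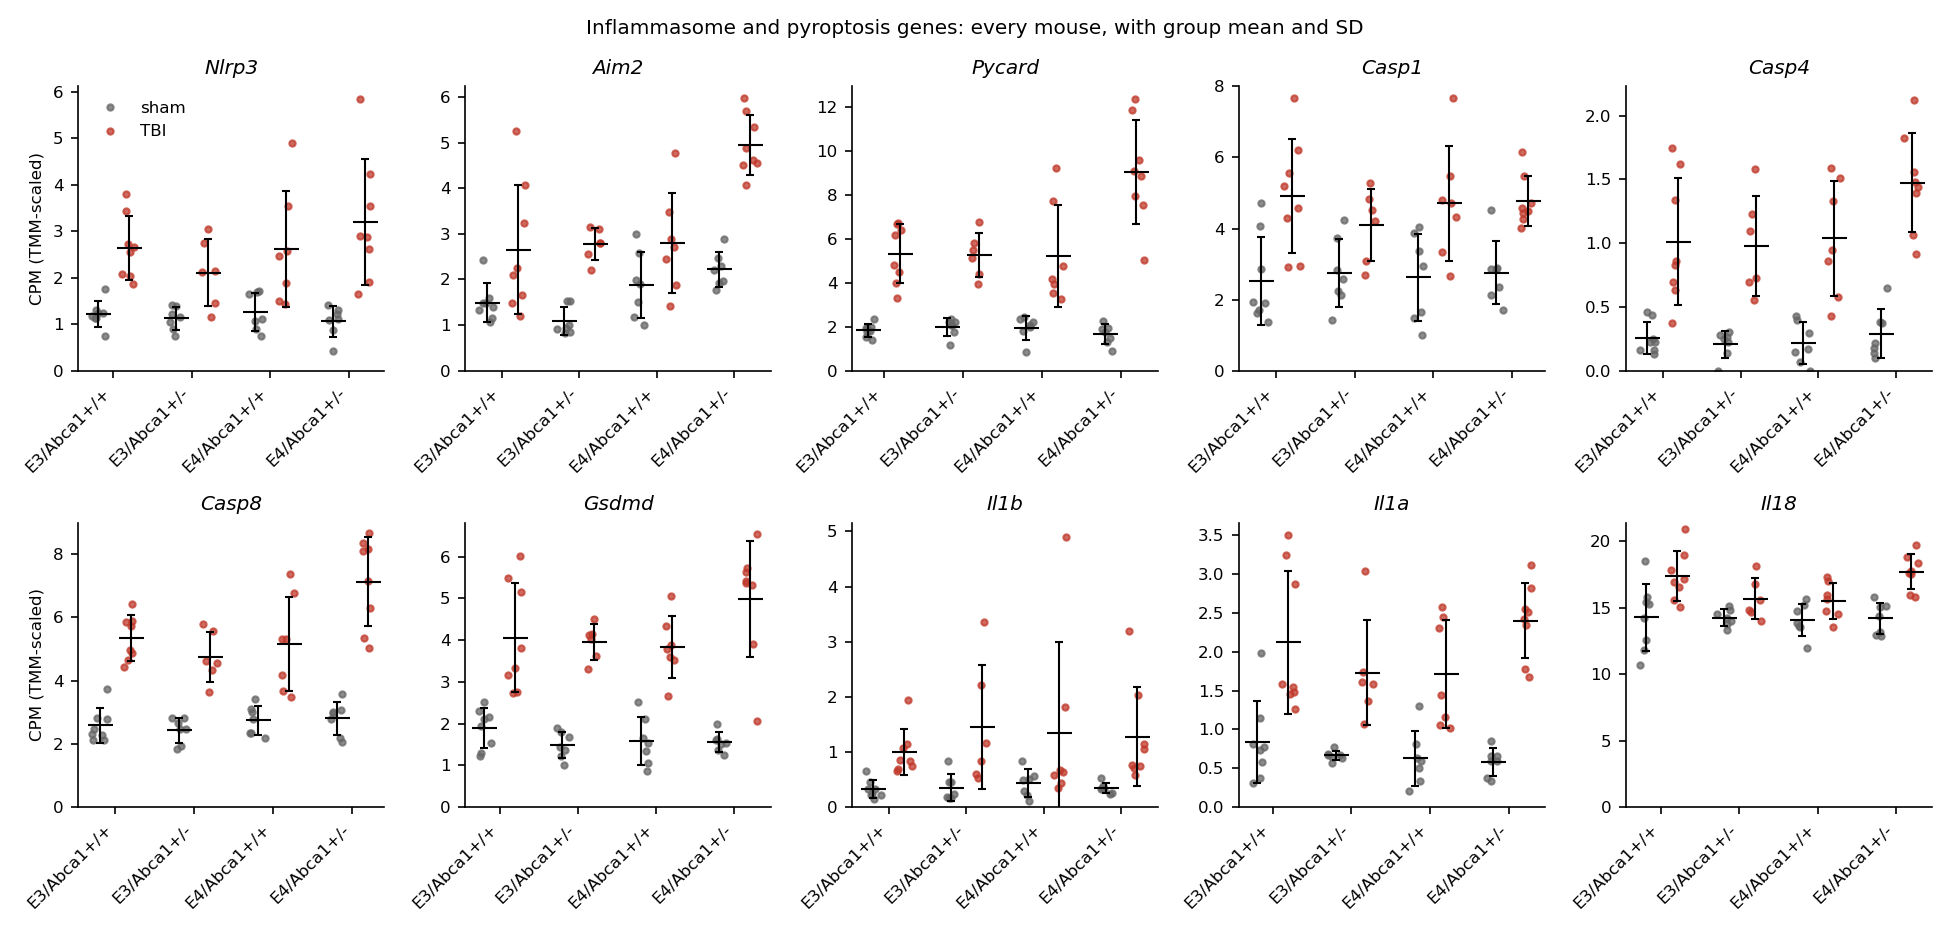
CPM of each member (panels, linear axes from 0) in every mouse, by genotype, with sham mice in grey, TBI mice in red, and the group mean with its SD in black. TBI and sham mice do not overlap in any genotype for Pycard, Casp8 and Gsdmd, and overlap in all 4 genotypes for Casp1 and Il18.

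Of the sensors, Nlrp3, which starts the best studied inflammasome, had 0.427, 1.15 and 1.76 CPM as the lowest, median and highest of the 29 sham mice, and 1.15, 2.57 and 5.85 CPM in the 29 TBI mice. Of the TBI mice 24 exceeded every sham mouse, yet the groups overlapped in E3/Abca1+/- and E4/Abca1+/+ mice. Nlrp3 rose in each genotype, and edgeR gave log2 fold changes of 1.11 (standard error, SE, 0.18, adjusted p = 0.000134) in E3/Abca1+/+, 0.90 (SE 0.23, adjusted p = 0.00813) in E3/Abca1+/-, 1.02 (SE 0.29, adjusted p = 0.0276) in E4/Abca1+/+ and 1.52 (SE 0.27, adjusted p = 0.000376) in E4/Abca1+/- mice. In E4/Abca1+/+ mice this call depended on which mice were included, since leaving out each mouse in turn kept it in 7 of 14 refits (adjusted p up to 0.0607). Aim2, the DNA sensor, had 0.828, 1.52 and 3.00 CPM in sham mice and 1.21, 3.11 and 5.98 CPM in TBI mice. TBI and sham mice were fully separated in both Abca1+/- genotypes and overlapped in both Abca1+/+ genotypes. Of all genes, 6.57% (E3) and 7.36% (E4) were separated with TBI higher among Abca1+/- mice. Among Abca1+/+ mice, whose libraries were shallower, the shares were lower, at 4.36% (E3) and 3.76% (E4). An effect of Abca1 copies on this split thus cannot be told from depth for Aim2. The log2 fold change was 0.93 (SE 0.27, adjusted p = 0.0158) in E3/Abca1+/+, 1.35 (SE 0.18, adjusted p = 3.25e-05) in E3/Abca1+/- and 1.12 (SE 0.12, adjusted p = 3.63e-06) in E4/Abca1+/- mice, and 0.60 (SE 0.26, adjusted p = 0.144) in E4/Abca1+/+ mice, where it did not pass the test.

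Pycard, the adaptor that every sensor with a pyrin domain needs, separated TBI from sham mice completely. Its sham mice had 1.40, 1.89 and 2.37 CPM as lowest, median and highest in E3/Abca1+/+, 1.17, 2.09 and 2.37 in E3/Abca1+/-, 0.842, 2.10 and 2.45 in E4/Abca1+/+, and 0.907, 1.75 and 2.28 CPM in E4/Abca1+/- mice. The TBI mice had 3.33, 5.50 and 6.72 CPM in E3/Abca1+/+, 3.93, 5.32 and 6.78 in E3/Abca1+/-, 3.26, 4.17 and 9.24 in E4/Abca1+/+, and 5.03, 8.98 and 12.4 CPM in E4/Abca1+/- mice. All 29 TBI mice lay above all 29 sham mice, whatever the genotype. The share of all genes separated in this pooled way is not given here. Within genotypes, groups without overlap and TBI higher made up 4.36% of all genes in E3/Abca1+/+ and 6.57% in E3/Abca1+/- mice. The shares were 3.76% in E4/Abca1+/+ and 7.36% in E4/Abca1+/- mice. On the log2 scale Pycard rose by 1.48 (SE 0.17, adjusted p = 1.97e-06), 1.40 (SE 0.16, adjusted p = 8.7e-06), 1.38 (SE 0.26, adjusted p = 0.00164) and 2.41 (SE 0.20, adjusted p = 4.59e-07) in these 4 genotypes in that order (edgeR).

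The caspases behaved less alike. Casp1, the central protease of the canonical inflammasome, had 1.00, 2.59 and 4.71 CPM as lowest, median and highest in sham mice and 2.65, 4.58 and 7.68 CPM in TBI mice. Its sham mice spread over a wide range, and TBI and sham mice overlapped in every genotype. Casp1 rose in E3/Abca1+/+ (log2 fold change 0.94, SE 0.25, adjusted p = 0.00956, edgeR), E4/Abca1+/+ (0.89, SE 0.29, adjusted p = 0.0457) and E4/Abca1+/- mice (0.75, SE 0.17, adjusted p = 0.0021), and had 0.58 (SE 0.23, adjusted p = 0.0825) in E3/Abca1+/- mice. The call in E4/Abca1+/+ mice held in 4 of 14 refits that each left out a mouse. Casp8, the initiator caspase of death receptors, was tighter, with 1.83, 2.66 and 3.74 CPM in sham and 3.49, 5.34 and 8.65 CPM in TBI mice. No genotype had overlapping groups, and the log2 fold changes were 1.07 (SE 0.13, adjusted p = 4.1e-06) in E3/Abca1+/+, 0.96 (SE 0.14, adjusted p = 9.13e-05) in E3/Abca1+/-, 0.87 (SE 0.18, adjusted p = 0.00381) in E4/Abca1+/+ and 1.30 (SE 0.15, adjusted p = 4.66e-06) in E4/Abca1+/- mice.

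Casp4, the sensor and protease of the non-canonical pathway, was nearly silent in sham brain. It had 0, 0.225 and 0.652 CPM as lowest, median and highest of the sham mice, which is 0 to 16 reads, and all 8 E3/Abca1+/+ sham mice held 3 reads or fewer. After TBI it had 0.371, 1.10 and 2.13 CPM, and 24 of 29 TBI mice exceeded every sham mouse. In the deep genotypes the log2 fold change was 2.13 (SE 0.35, adjusted p = 0.000319, edgeR) for E3/Abca1+/- and 2.24 (SE 0.31, adjusted p = 2.85e-05) for E4/Abca1+/- mice. With no filter on low counts the 2 shallow genotypes gave 2.13 (SE 0.36, adjusted p = 0.000168) for E3/Abca1+/+ and 2.24 (SE 0.45, adjusted p = 0.00289) for E4/Abca1+/+ mice. Casp4 thus had the largest mean change of the members, 2.20 (SE 0.19) over the 4 genotypes, from the lowest level.

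Gsdmd encodes the protein that forms the pyroptotic pore. Sham mice had 0.858, 1.55 and 2.53 CPM and TBI mice 2.06, 4.03 and 6.53 CPM as lowest, median and highest, and within each genotype every TBI mouse lay above every sham mouse. The lowest TBI value belonged to an E4/Abca1+/- mouse, whose group also held the highest. The log2 fold change was 1.09 (SE 0.20, adjusted p = 0.000475, edgeR) in E3/Abca1+/+, 1.38 (SE 0.14, adjusted p = 3.36e-06) in E3/Abca1+/-, 1.26 (SE 0.20, adjusted p = 0.000409) in E4/Abca1+/+ and 1.66 (SE 0.19, adjusted p = 4.81e-06) in E4/Abca1+/- mice. Pycard, Casp8 and Gsdmd were the members that passed the test without overlap in all 4 genotypes. Together with Nlrp3 they were called higher in every genotype, as were 6.79% of the 13950 genes tested in all 4.

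The cytokines covered the extremes. Il1b, the fever-inducing cytokine that caspase-1 matures, had 0.106, 0.327 and 0.842 CPM as lowest, median and highest in sham mice, or 1 to 19 reads. In TBI mice it had 0.354, 0.837 and 4.90 CPM, and 14 of the 29 exceeded every sham mouse. A few TBI mice carried much of the mean: the highest was 1.94 CPM in E3/Abca1+/+ against a group median of 0.854, 3.36 against 1.00 in E3/Abca1+/-, 4.90 against 0.648 in E4/Abca1+/+ and 3.19 against 0.909 CPM in E4/Abca1+/- mice. The log2 fold change was 1.97 (SE 0.49, adjusted p = 0.00739, edgeR) in E3/Abca1+/- and 1.81 (SE 0.37, adjusted p = 0.00111) in E4/Abca1+/- mice. With no filter it was 1.67 (SE 0.33, adjusted p = 0.000747) in E3/Abca1+/+ and 1.43 (SE 0.58, adjusted p = 0.116) in E4/Abca1+/+ mice, the second short of the threshold.

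Il1a, an alarmin that acts without cleavage by caspase-1, had 0.215, 0.646 and 1.98 CPM in sham and 1.02, 1.74 and 3.50 CPM in TBI mice. Separation was also more frequent among all genes in the deeper Abca1+/- genotypes. Il1a was fully separated in both of these and overlapped in both Abca1+/+ genotypes. Its log2 fold change was 1.52 (SE 0.31, adjusted p = 0.00108) in E3/Abca1+/+, 1.34 (SE 0.22, adjusted p = 0.000267) in E3/Abca1+/- and 2.0 (SE 0.19, adjusted p = 1.31e-06) in E4/Abca1+/- mice, and 1.31 (SE 0.33, adjusted p = 0.0132) with no filter in E4/Abca1+/+ mice, all from edgeR. Il18, which unlike Il1b is made in resting tissue, had 10.7, 14.2 and 18.5 CPM in sham and 13.5, 16.8 and 20.9 CPM in TBI mice. These ranges overlapped in every genotype. Il18 rose in E3/Abca1+/+ (log2 fold change 0.30, SE 0.10, adjusted p = 0.0319) and E4/Abca1+/- mice (0.28, SE 0.07, adjusted p = 0.00269), and had 0.14 (SE 0.07, adjusted p = 0.144) in E3/Abca1+/- and 0.13 (SE 0.08, adjusted p = 0.291) in E4/Abca1+/+ mice. In E3/Abca1+/+ mice the call held in 10 of 16 refits without a mouse.

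**Figure D3:**
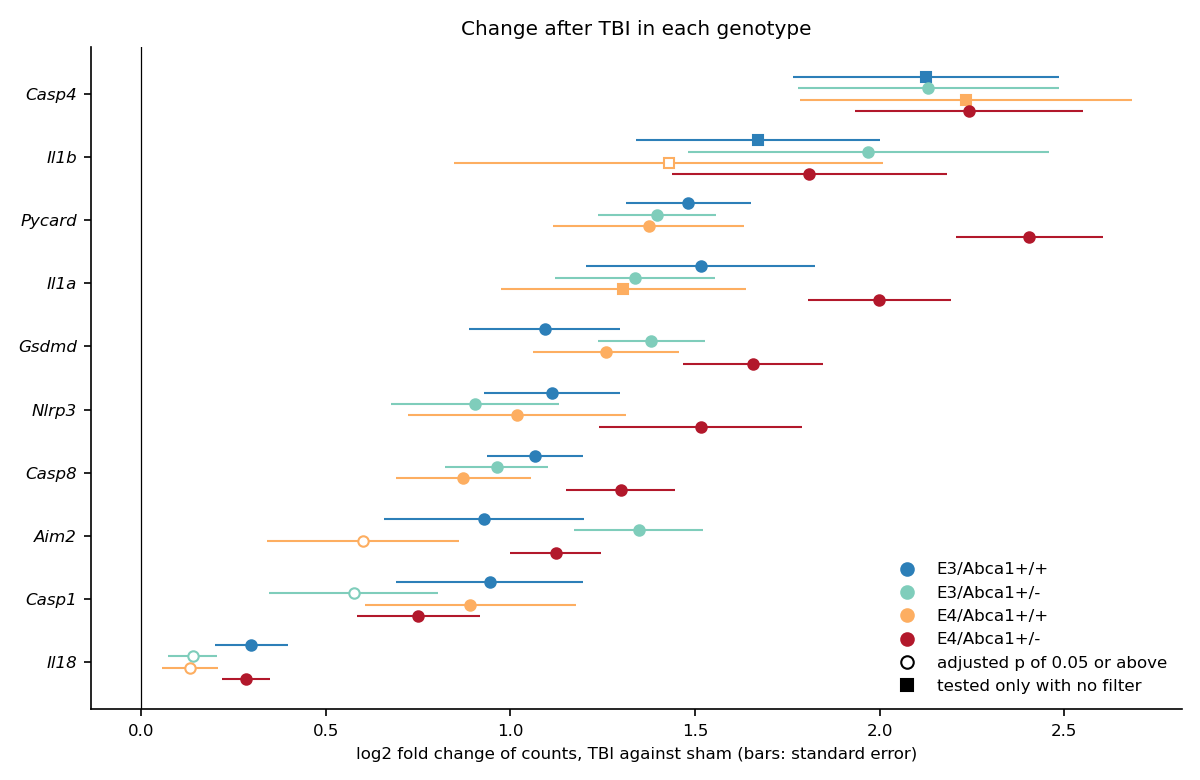
Log2 fold change of counts, TBI against sham, with its standard error, for each member (rows) and genotype (colours). Filled symbols passed an adjusted p of 0.05 and squares are values with no filter on low counts. All values are above 0, from 0.13 for Il18 in E4/Abca1+/+ to 2.41 for Pycard in E4/Abca1+/- mice.

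Whether the response to TBI differed between genotypes was tested directly. The joint test of genotype by injury over all 58 mice called 0 members and 0 of 15171 genes with edgeR, and Pycard alone had an unadjusted p under 0.05 (unadjusted p = 0.00057, adjusted p = 0.961). Among Abca1+/- mice the rise of Pycard was larger in E4 than in E3 by 1.03 on the log2 scale (SE 0.27, unadjusted p = 0.000553, adjusted p = 0.691, edgeR), and that of Il1a by 0.68 (SE 0.29, unadjusted p = 0.0262, adjusted p = 0.762). Among E4 mice the rise of Pycard was larger in Abca1+/- than in Abca1+/+ by 1.05 (SE 0.34, unadjusted p = 0.00413, adjusted p = 0.950). These comparisons share the E4/Abca1+/- mice. Neither the interaction of Abca1 copies with injury in E3 mice nor that of isoform with injury in Abca1+/+ mice had a member with an unadjusted p under 0.05. DESeq2 called 0 members in each of the 5 interaction tests. A difference in the response of any member thus did not pass the correction over all genes.

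Compared within injury status, most of the contrasts between genotypes called no member. Among Abca1+/- TBI mice, 3 of 10 members were higher in E4 than in E3, against 1.10% of all genes. These were Aim2 (log2 fold change 0.82, SE 0.12, adjusted p = 0.00243, edgeR), Pycard (0.76, SE 0.17, adjusted p = 0.0288) and Casp8 (0.56, SE 0.14, adjusted p = 0.0485). Among Abca1+/- sham mice Aim2 alone of 8 members tested was higher in E4 (2.92% of all genes were called higher), with a log2 fold change of 1.04 (SE 0.17, adjusted p = 0.00322). Among E4 TBI mice Aim2 alone was higher in Abca1+/- than in Abca1+/+ mice (0.77, SE 0.19, adjusted p = 0.0482, where 0.559% of all genes were called higher). In that contrast of Abca1 copies, counts thinned to the depth of the shallowest mouse left Aim2 at 0.75 (SE 0.23, adjusted p = 0.137), short of the threshold. The other 5 contrasts called 0 members with edgeR, 0 with DESeq2 and 0 at an unadjusted p under 0.05. Their shares of all genes called were 2.51% for Abca1 copies in E3 sham, 0.180% in E3 TBI and 0.990% in E4 sham mice, and 0.346% and 0.207% for isoform in Abca1+/+ sham and TBI mice.

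Aim2 was the member whose level set the Abca1+/- genotypes apart with and without injury. In sham mice it had 0.828, 0.946 and 1.54 CPM as lowest, median and highest in E3/Abca1+/- and 1.77, 2.21 and 2.89 CPM in E4/Abca1+/- mice. In TBI mice it had 2.21, 2.80 and 3.14 CPM in E3/Abca1+/- and 4.07, 4.75 and 5.98 CPM in E4/Abca1+/- mice. In neither state did an E3 mouse reach an E4 mouse, which held for 1.03% of all genes in sham and 0.679% in TBI mice. In Abca1+/+ mice the isoforms overlapped, with 1.06, 1.44 and 2.44 CPM in E3 and 1.01, 1.90 and 3.00 CPM in E4 sham mice, and a log2 fold change of 0.38 (unadjusted p = 0.105, adjusted p = 0.679, edgeR). Both calls held in all 14 refits that each left out a mouse. With counts thinned to the depth of the shallowest mouse the TBI call held (0.84, SE 0.18, adjusted p = 0.0283, edgeR), and in sham mice Aim2 was no longer tested, as 3 members passed the filter.

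The other genotype calls were fragile. Leaving out each mouse in turn kept the call of Pycard between E4/Abca1+/- and E3/Abca1+/- TBI mice in 7 of 14 refits, that of Casp8 in 3 of 14, and that of Aim2 for Abca1 copies in E4 TBI mice in 2 of 15. Without the 5 mice that stood apart Casp8 was lost (adjusted p = 0.0637, edgeR) and in the contrast of Abca1 copies Pycard (0.87, adjusted p = 0.0285) was called in place of Aim2 (adjusted p = 0.0515). Markers of astrocytes and of microglia both moved with these contrasts. The 5 astrocyte markers summed to 3977 ± 912 CPM (SD) in E4/Abca1+/- TBI mice. They summed to 3234 ± 520 CPM in E3/Abca1+/- and 3076 ± 779 CPM in E4/Abca1+/+ TBI mice. The summed level of 12 microglia markers after TBI reached 1440 ± 263 CPM (SD) over the 8 E4/Abca1+/- mice. For these microglia markers it was 1065 ± 159 CPM over the 6 E3/Abca1+/- mice and 1060 ± 298 CPM over the 7 E4/Abca1+/+ mice. When libraries were scaled to these markers instead, 0 members were called in either TBI contrast with edgeR. There Aim2 was 0.42 (SE 0.19, adjusted p = 0.0624) and Pycard 0.35 (SE 0.17, adjusted p = 0.0688) higher in E4/Abca1+/- than in E3/Abca1+/- TBI mice on the log2 scale. The scaling itself lowers every gene in the E4/Abca1+/- TBI mice, whose marker sum was higher. A test against 0 is then not a test against the bulk of genes, and the shift of all genes in these TBI contrasts is not given here. Aim2 kept its difference between E4/Abca1+/- and E3/Abca1+/- sham mice under that scaling, at 0.96 (SE 0.19, adjusted p = 0.0158).

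Microglia markers also rose with the injury itself. All 12 were called higher in TBI mice in each genotype, and their sum went from 511 ± 49.8 CPM (lowest 427, highest 683, n = 29) in sham to 1182 ± 283 CPM (lowest 790, highest 1787, n = 29) in TBI mice. Astrocyte markers rose as well, with 5, 4, 5 and 5 of 5 called higher in E3/Abca1+/+, E3/Abca1+/-, E4/Abca1+/+ and E4/Abca1+/- mice, and their sum went from 1471 ± 131 CPM in sham to 3437 ± 777 CPM in TBI mice. Of 5 neuron markers 4, 5, 3 and 5 were called lower, and their sum went from 7707 ± 284 to 6400 ± 515 CPM. The part of each cell type in the rise of the members was not tested. The change of the members was also expressed per microglia marker, by scaling each library to that sum. On this scale the median of all genes fell, by −1.11 in E3/Abca1+/+, −1.03 in E3/Abca1+/-, −1.06 in E4/Abca1+/+ and −1.36 in E4/Abca1+/- mice on the log2 scale, and values of members are read against that shift. Il18 was lower in all 4 genotypes, with log2 fold changes from −0.82 to −1.07, near the shift of all genes. In the order of the genotypes above, 95.6%, 93.5%, 95.2% and 94.5% of all genes were called lower.

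Per microglia marker 0 of 8, 2 of 10, 0 of 7 and 3 of 10 members tested were called higher. Of all genes 1.31%, 1.64%, 1.11% and 1.97% were, in the same order of genotypes. Nlrp3, Casp8, Gsdmd and Aim2 passed in no genotype, with log2 fold changes from −0.47 for Aim2 in E4/Abca1+/+ to 0.34 for Gsdmd in E3/Abca1+/- mice. Casp4 was higher in both genotypes in which it was tested, by 1.10 (SE 0.36, adjusted p = 0.0066, edgeR) in E3/Abca1+/- and 0.93 (SE 0.31, adjusted p = 0.00553) in E4/Abca1+/- mice. Il1b was higher in E3/Abca1+/- mice (0.86, SE 0.41, adjusted p = 0.0472). Casp1 was called lower in E4/Abca1+/- mice (−0.64, SE 0.21, adjusted p = 0.00437, edgeR), as were 94.5% of all genes there. It lay above their median of −1.36, and per library it had risen by 0.75 (SE 0.17). In E4/Abca1+/- mice Pycard (1.04, SE 0.18, adjusted p = 2.75e-06) and Il1a (0.65, SE 0.24, adjusted p = 0.0117) were higher. Pycard had 0.24 to 0.34 in the other 3 genotypes and did not pass there. The larger rise of Pycard in E4/Abca1+/- than in E3/Abca1+/- mice was 0.71 on this scale (SE 0.24, unadjusted p = 0.00593, adjusted p = 0.169), while that of Aim2 was smaller by 0.55 (−0.55, SE 0.25, unadjusted p = 0.0366, adjusted p = 0.169, edgeR). The median of all genes fell by −1.36 in E4/Abca1+/- and by −1.03 in E3/Abca1+/- mice on this scale, and these contrasts carry that difference too. Scaling these contrasts to microglia markers was chosen after seeing the data. The calls depend on which markers are summed, since P2ry12, Tmem119, Fcrls and Siglech alone gave 3, 7, 3 and 7 members called in place of 1, 3, 1 and 5. Of these 2, 6, 2 and 6 were higher, and 1 was lower in each genotype. Of all genes 289 of 14093, 410 of 15026, 250 of 14041 and 468 of 15083 were then called higher.

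**Figure D4:**
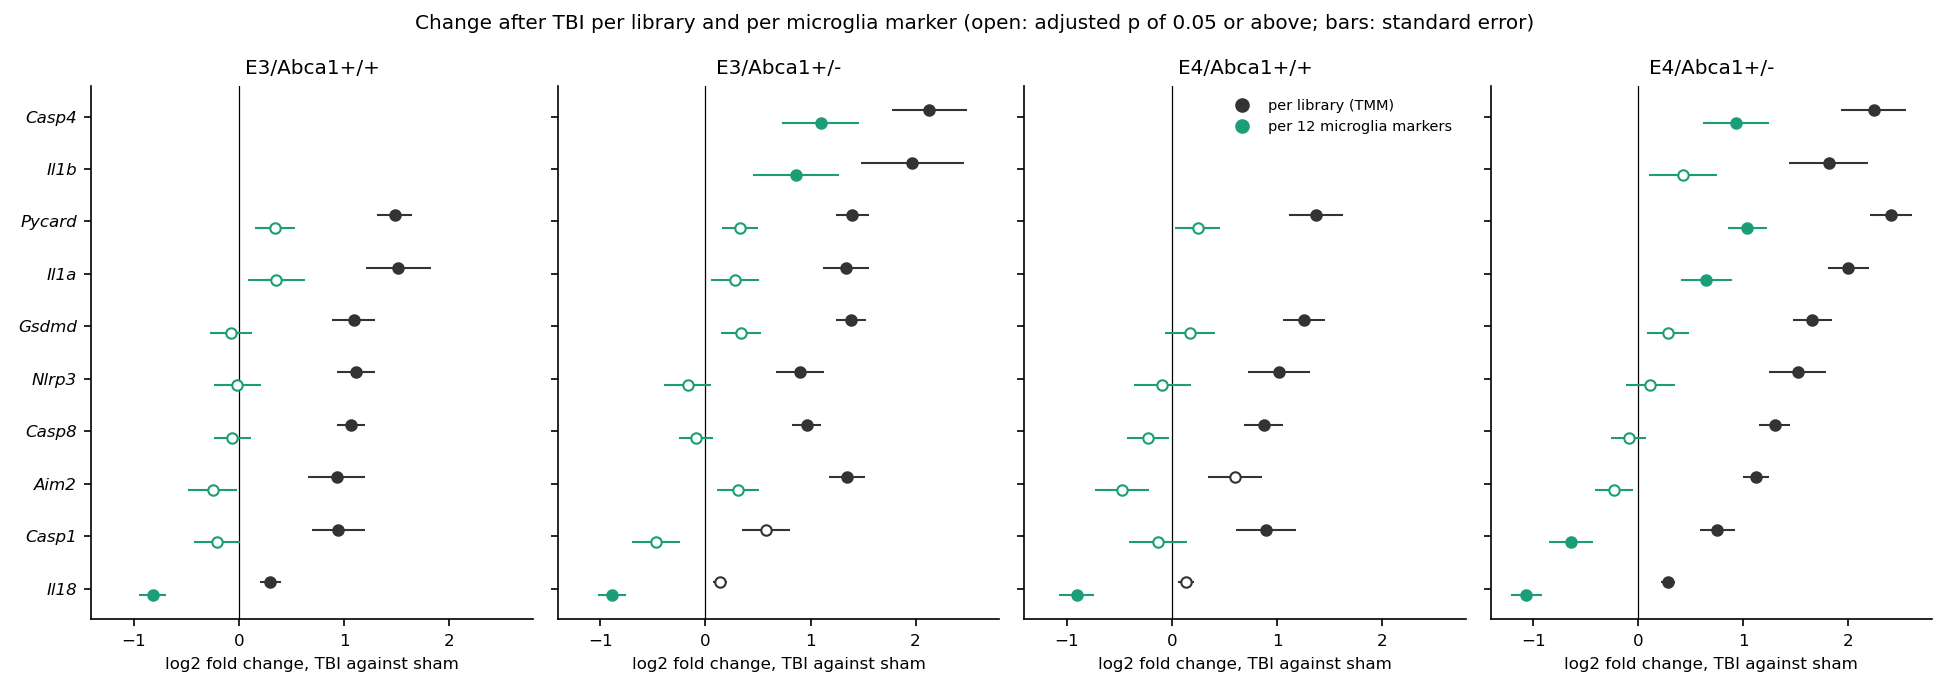
Log2 fold change, TBI against sham, of each member per library (dark) and per summed 12 microglia markers (green), with standard errors, in the 4 genotypes; open points did not pass an adjusted p of 0.05 and members below the count filter are left out. The filled green points are Il18 in every genotype (−0.82 to −1.07), Casp4 (1.10) and Il1b (0.86) in E3/Abca1+/- mice, and Pycard (1.04), Casp4 (0.93), Il1a (0.65) and Casp1 (−0.64) in E4/Abca1+/- mice.

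Blood-borne cells were looked for with markers. Of 10 neutrophil markers only S100a8 and S100a9 were in the table, and their sum was 0 to 1.07 CPM in sham and 0.289 to 17.9 CPM in TBI mice. Of 8 monocyte markers 6 were in the table, of which E4/Abca1+/- mice had 5 called higher and E3/Abca1+/- mice 2, while in the shallow Abca1+/+ genotypes only Vcan and Itga4 passed the count filter and neither was called. The sum of all 6 was 46.5 to 69.2 CPM in sham and 51.2 to 92.0 CPM in TBI mice. Most of it was Vcan, with means of 18.7 in sham and 22.7 CPM in TBI mice, and Itga4, with 39.2 and 44.1 CPM. The sum therefore says little of the others, which were low but rose. Mean Ccr2 went from 0.312 to 2.28 CPM and Ly6c2 from 0.110 to 0.754 CPM. Plac8 went from 0.0465 to 0.658 CPM and Ms4a4c from 0.0730 to 0.818 CPM. These sham means lie below the floor of the shallowest mouse. Of 6 markers of border macrophages 1 or 2 were called in each genotype. Of 8 markers of T and NK cells 2 were in the table. Cd4 was called higher in E4/Abca1+/- mice (log2 fold change 1.63, adjusted p = 0.0394, edgeR). There the sum of both went from 0.868 ± 0.192 CPM in sham to 3.34 ± 3.76 CPM in TBI mice. A single TBI mouse had 12.4 CPM of that sum, and the next of its group 3.72 CPM. Pycard had r = 0.53 with that sum over the 58 mice after subtraction of group means, and the same mouse had the highest Pycard of all, 12.4 CPM. None of 4 B cell markers was in the table. The part of these cells in the rise of the members was not tested.

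Mice of the same group were also compared with each other, after the mean of each of the 8 groups had been subtracted from log2(CPM + 1). Pearson's r over the 58 mice is a description, since all values of a mouse share its library, dissection and depth. Pycard followed the summed microglia markers most closely (r = 0.71), then Il1b (0.65), Il1a (0.64), Casp8 (0.63), Nlrp3 (0.63), Casp4 (0.60), Aim2 (0.41) and Gsdmd (0.40). Il18 (0.02) and Casp1 (−0.01) did not follow them. Summed astrocyte markers gave values of like size, 0.70 for Il1b, 0.57 for Il1a, Casp8 and Pycard, 0.51 for Nlrp3, 0.48 for Casp4 and 0.46 for Gsdmd, of which those of Il1b and Gsdmd were above their values with microglia markers. Il1b followed S100a8 and S100a9 (r = 0.80) more closely than any other member did, the next being Pycard (0.53). The 3 mice with the highest Il1b, 4.90, 3.36 and 3.19 CPM, had summed S100a8 and S100a9 of 11.9, 17.9 and 12.2 CPM, the highest 3 of all mice. Casp1 instead ran against the summed markers of hippocampal neurons (r = −0.58), which no other member did beyond −0.25.

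**Figure D5:**
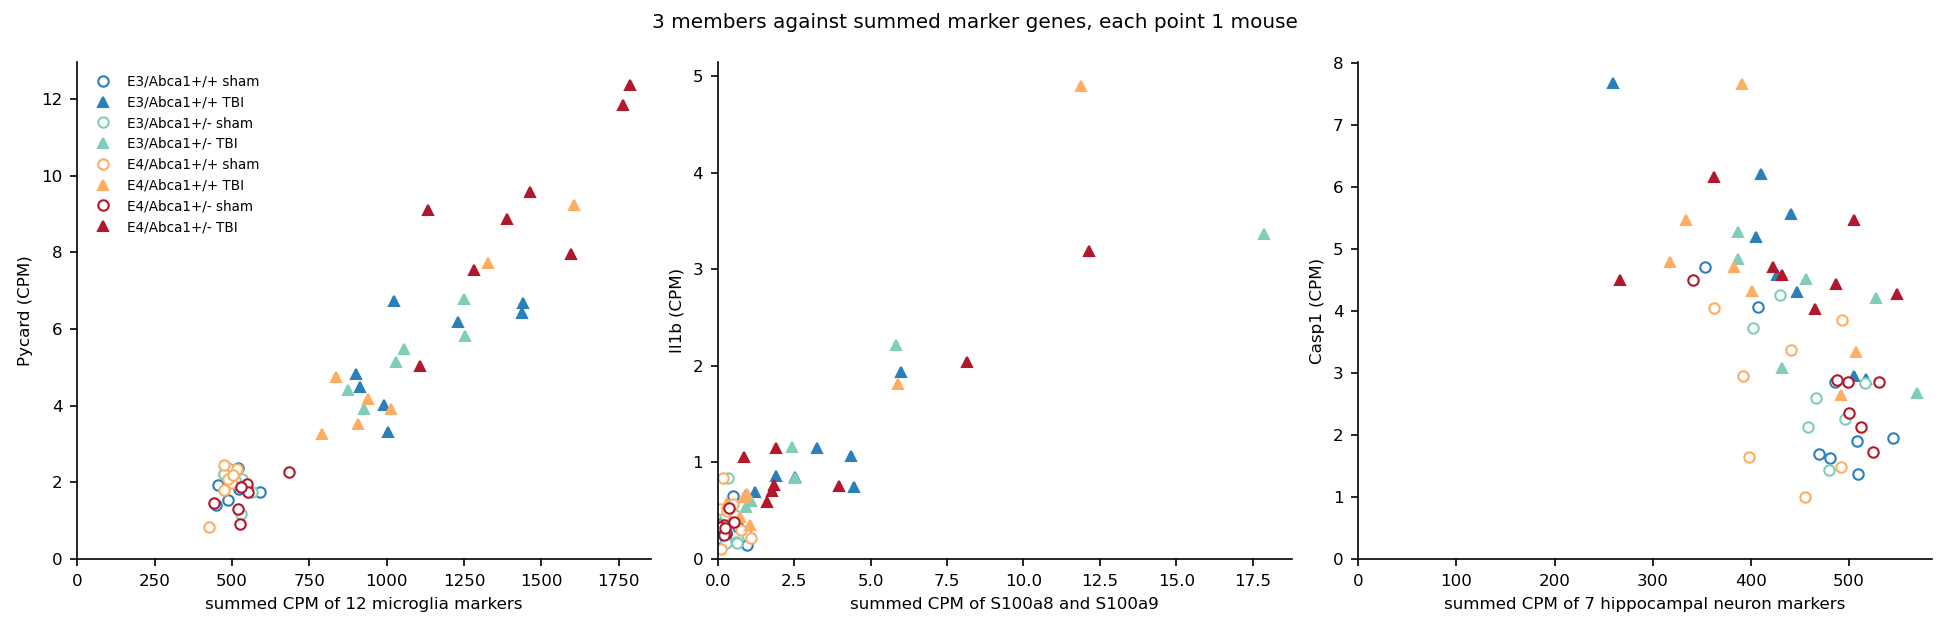
CPM of Pycard, Il1b and Casp1 in each of 58 mice against the summed CPM of microglia markers, of S100a8 and S100a9, and of hippocampal neuron markers; colours are genotypes, open circles sham and triangles TBI mice. Pycard climbs with microglia markers up to 12.4 CPM, and the 3 highest values of Il1b have 11.9 or more CPM of S100a8 and S100a9. The mouse with the highest Casp1, 7.68 CPM, had the lowest sum of hippocampal markers, 260 CPM. The mouse with the next lowest sum, 267 CPM, had Casp1 at 4.50 CPM.

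The genes most like each member, by the same r, differed from member to member. Nearest to Il1b were S100a9 (r = 0.79), a neutrophil and myeloid alarmin, Chil1 (0.78) and Tnfaip2 (0.78). Pycard was nearest to Unc93b1 (0.75), the chaperone of endosomal Toll-like receptors, C1qc (0.73), a complement subunit made by microglia, and Slfn2 (0.73). Casp8 was nearest to the leukocyte genes Dock8 (0.71) and Cd53 (0.68) and to Msn (0.68), and Il1a to Irf5 (0.70), Rac2 (0.67) and S100a6 (0.67). Nlrp3 had Dhrs1 (0.69), Atp6v0d2 (0.67) and Psap (0.67), the last a lysosomal precursor protein, and Gsdmd had Tcirg1 (0.67), Aoah (0.62) and Bcl2a1b (0.61). Casp4 was nearest to C1ra (0.69), Apoc1 (0.67) and Icam1 (0.64), and Aim2 to Uba7 (0.57), Plcb2 (0.55) and Dock2 (0.52). Casp1 and Il18 again kept other company, Casp1 with Pth1r (0.68), Fermt1 (0.68) and Usp43 (0.65), and Il18 with Dancr (0.60), Gcdh (0.56) and Rmnd1 (0.51). The likeness was searched among 14372 genes, all over the same 58 mice.

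Beyond the members, 123 genes of the pathway in 9 lists were followed, of which 101 were in the table. Among all genes tested in the 4 genotypes, 6.79% were higher in each of them. Of the other inflammasome sensors 13 were in the table and 9 were tested in every genotype, and 5 of these 9 were higher in all 4, namely Ifi204 (mean log2 fold change 3.61), Nlrc5 (2.05), Naip2 (1.83), Naip5 (1.72) and Card9 (1.02), the last an adaptor. None was lower. Of 17 genes in the table that trigger or license NLRP3, 9 were higher in all 4, with the guanylate-binding proteins Gbp2 (2.19), Gbp5 (1.89) and Gbp3 (1.58) at the top and the ATP-gated channel P2rx7 (0.65), Ctsb (0.66) and Txnip (0.71) at the bottom of these. Nek7, the kinase that NLRP3 binds, had 0.07 and was called in no genotype, and is named after its value was seen. Of 19 genes of priming and IL-1 signalling 9 were higher in all 4, led by Tlr2 (3.13), Cd14 (1.82) and Irf8 (1.70) and ending with Myd88 (0.64), Nfkbia (0.50) and Nfkb1 (0.49). All 6 genes of the list headed lysosomal damage were higher in all 4, from Lgals3 (4.34), Cybb (4.04) and Ctss (1.88) to Ctsl (0.85), Ctsb (0.66) and Lamp1 (0.48). The heading is only the name of the list, and these transcripts do not measure damage to lysosomes.

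Inhibitors and neighbours of the pathway were followed in the same way. Of 12 inhibitors tested in every genotype, 4 were higher in all 4 genotypes: Trim30a (1.96), Il18bp (1.15), which binds and neutralizes IL-18, Ripk1 (0.65) and Cflar (0.52). Tollip was lower in 2 genotypes and Il1rn and Il1r2 were not in the table. Of 11 death receptor and necroptosis partners of Casp8 tested in every genotype, 5 were higher in all 4, namely the TNF receptors Tnfrsf1b (1.51) and Tnfrsf1a (1.23), Birc3 (0.92), Ripk1 and Cflar. Of 10 executioners beside Gsdmd 1 was, Ninj1 (0.53), which ruptures the membrane of dying cells. Of 9 genes of membrane repair 1 was, Anxa2 (1.09), so that both of these lists lay near the 6.79% of all genes, and the ESCRT genes Chmp4b, Chmp3, Vps4a and Vps4b were called in no genotype and are likewise named after their values were seen. Of the IL-1 family 4 of 12 listed were in the table, and Il33 (0.49) was higher in all 4 genotypes. No gene of these lists was called higher in 1 genotype and lower in another.

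Females and males both took part in each group. The rise after TBI was compared between the sexes over all 58 mice, and 0 members and 0 genes passed the correction with edgeR, while DESeq2 called 0 members. At an unadjusted p under 0.05 the rise was larger in females for Nlrp3 (by 0.76 on the log2 scale, SE 0.22, unadjusted p = 0.000957, adjusted p = 0.334), Il1b (1.36, SE 0.46, unadjusted p = 0.00431, adjusted p = 0.400) and Pycard (0.42, SE 0.20, unadjusted p = 0.0402, adjusted p = 0.624). Nlrp3 stood at 1.15 ± 0.367 CPM in 14 female and 1.18 ± 0.262 CPM in 15 male sham mice, and at 3.36 ± 1.08 and 2.04 ± 0.550 CPM in TBI mice. Il1b stood at 0.287 ± 0.113 and 0.440 ± 0.221 CPM in female and male sham mice, and at 1.66 ± 1.31 and 0.873 ± 0.482 CPM in TBI mice. In sham mice the sexes thus lay within each other's spread for Nlrp3, and the gap appeared after TBI.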

How the data were processed

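Gene expression was measured by RNA sequencing of the hippocampus and cortex of 58 mice. The authors deposited whole-number read counts per gene, not normalized, and the submitters' processing notes name mm10, Subread 1.5.0, featureCounts and edgeR. The annotation and the strand setting of the counting are not given in the sources used here. The table held 15171 named genes after 2 blank rows were removed, 23 symbols had been turned into dates, and 0 columns were unmapped. Total counts were 4421308 to 37877346, and 3 counts, taken as the floor, are 0.0792 to 0.679 CPM (counting error only). No pair of libraries was a duplicate. The result of 1 further marker set is not reported here.

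Groups came from the labels. Each comparison of 2 groups was fitted on its own mice in edgeR 4.0.16 (R 4.3.3) with TMM factors, filterByExpr, glmQLFit and glmQLFTest, and interactions and the mean of 4 genotypes over all groups concerned, with Benjamini-Hochberg adjustment over all genes tested and a threshold of 0.05. Levels are CPM with TMM factors, and likeness used log2(CPM + 1). Scaling to microglia markers used their summed counts as library size. Alternatives were DESeq2 1.42.0, its size factors, other filters, thinning to the lowest total, sex as a covariate, a single fit, edgeR's exact test, another marker set and each mouse left out; leaving out 5 mice together and scaling genotype contrasts to microglia markers were chosen after seeing the data. The fit was tested on simulated data, with the changed genes drawn at random from all genes. For TBI against sham in E3/Abca1+/- mice, over 15090 genes, it recovered 58.75% of genes changed by 0.5 on the log2 scale. It recovered 93.6% of those changed by 1, with 12 false among 171 calls. For isoform by injury in Abca1+/- mice, over 15157 genes, it recovered 41.25% and 85%, with 7 false among 147. The real fit of isoform by injury in Abca1+/- mice called 0 of 15162 genes, and with so few calls the adjustment is harder to pass. The simulated shares therefore do not tell how often a change in a member would be found.

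The members and gene lists were chosen with earlier results of these data known. Named were all 10 members, the genes of each pathway list called in the same direction in all 4 genotypes with the 3 largest and 3 smallest mean log2 fold changes, and the 3 genes most like each member. Coordinates are from GENCODE on GRCm38 and promoters from RefSeq GRCm38.p6. Figures were drawn with Python 3.11.15 and matplotlib 3.10.9.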

Additional observations from a re-analysis of the deposited data

Results flagged for a closer look

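In each of the 8 groups the highest and the lowest mouse of each member were compared with the nearest other mouse of the group, and in 7 of 80 groups the gap exceeded Dixon's 95% critical value. Chance alone gives about 1 in 20, or 4 of 80. The mice were 7 different animals, 6 high and 1 low. Aim2 was 2.44 CPM (15 reads) in E3/Abca1+/+ sham replicate 8, where the next mouse had 1.60 CPM. Pycard was 0.842 CPM (5 reads) in E4/Abca1+/+ sham replicate 4, the low one, where the next had 1.80 CPM. Casp1 was 4.51 CPM (129 reads) in E4/Abca1+/- sham replicate 1, next to 2.88 CPM, and Casp8 was 3.74 CPM (17 reads) in E3/Abca1+/+ sham replicate 4, next to 2.81 CPM. Il1b was 1.94 CPM (31 reads) in E3/Abca1+/+ TBI replicate 4, next to 1.15 CPM, and 4.90 CPM (26 reads) in E4/Abca1+/+ TBI replicate 6, next to 1.81 CPM. Il1a was 3.04 CPM (37 reads) in E3/Abca1+/- TBI replicate 4, next to 1.74 CPM.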

How the results depend on the processing

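Of 868 fold changes of members recomputed under alternatives, 838 kept their direction and side of the threshold, 28 lost and 2 gained a call, and 0 reversed. Of 395 counts of members called, 350 stayed within 1.5 times the reported one, with a reported 0 that stayed 0 included. For Abca1 copies by injury in E3 and in E4 mice the 0 stayed in all 29 and 29 refits without a mouse. For isoform by injury in Abca1+/+ and in Abca1+/- mice it stayed in all 30 and 28. The 350 thus say less of the counts above 0. With counts thinned to the depth of the shallowest mouse, TBI against sham called 4 members in E3/Abca1+/+, 3 in E3/Abca1+/-, 3 in E4/Abca1+/+ and 6 in E4/Abca1+/- mice, in place of 8, 8, 5 and 10. Fewer members then passed the filter, 5, 5, 5 and 6. The same thinning gave 3 in place of 5 per microglia marker in E4/Abca1+/- mice, 0 for Abca1 copies in E4 TBI mice in place of 1, and 0 and 1 for E4 against E3 in Abca1+/- sham and TBI mice in place of 1 and 3, with 3 and 7 members tested. Per microglia marker the counts were 2 with no filter in both E3/Abca1+/+ and E4/Abca1+/+ mice, 1 with a filter of 1 CPM in 6 mice in E3/Abca1+/-, and 2 with sex as a covariate in E4/Abca1+/+ mice. P2ry12, Tmem119, Fcrls and Siglech alone gave 3, 7 and 3 in E3/Abca1+/+, E3/Abca1+/- and E4/Abca1+/+ mice. For Abca1 copies in E4 TBI mice edgeR's exact test gave 2, a term for sex 0, 1 fit over the 58 mice 3 and scaling to microglia markers 0, and that scaling gave 0 for E4 against E3 in Abca1+/- TBI mice. Apart from thinning, scaling and filtering, the cause of these moves was not tested. Leaving out each mouse in turn gave 6 to 8 members in E3/Abca1+/+, 8 to 9 in E3/Abca1+/-, 3 to 6 in E4/Abca1+/+ and 10 in E4/Abca1+/- mice, 0 to 2 for Abca1 copies in E4 TBI mice, and 1 to 4 for E4 against E3 in Abca1+/- TBI mice. No paired analysis was possible because replicate numbers follow only the order of the samples and no mouse is shared between groups.

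Depth limits Casp4 and Il1b most, at 16 and 19 reads at most in a sham mouse.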

Other observations

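The members did not move as 1 block between mice of a group. After the group means were subtracted, the closest pairs over 58 mice were Casp8 and Il1b (r = 0.55), Pycard and Il1a (0.53) and Gsdmd and Il1a (0.52), and the sensors Nlrp3 and Aim2 were unrelated (r = 0.00). Nlrp3 and Casp1, sensor and protease of the same inflammasome, had r = −0.07, and the cytokines Il1b and Il18 had −0.20. These are descriptions over values that share a library, most of them at few reads.

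Casp4 after TBI was 1.35 ± 0.439 CPM in 14 females and 0.946 ± 0.409 CPM in 15 males, and Casp1 was 4.38 ± 1.26 and 4.92 ± 1.25 CPM. Neither had an unadjusted p under 0.05 for injury by sex with edgeR.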
